A study of Mus musculus with 2 samples.

Results

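Keratins are the proteins of the intermediate filaments of epithelial cells, and their genes were followed here in 2 RNA-sequencing (RNA-seq) libraries of the mouse tongue. The members were all rows of the gene table whose symbol is *Krt* followed by a number, which gave 49 rows of 18498. Of these, 26 code for type I (acidic) keratins and 23 for type II (basic) keratins. The type I genes lie together on chromosome 11 (25 members) except *Krt18*, which lies at the end of the type II cluster on chromosome 15 (24 members with *Krt18*). Keratin-associated proteins (*Krtap*), *Krtcap* and *Krtdap* carry similar symbols and are not members.

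The study compared the circumvallate papillae (CvP), the large taste papillae at the back of the tongue, with the tongue epithelium that carries no papillae (Epi), to find genes of salt taste. Both libraries were made from poly(A) RNA of C57BL/6J mice, all male and 12 to 30 weeks old, with RNA of at least 20 mice pooled for each tissue, and no treatment or gene change is named. There was 1 library per tissue, so every comparison is between these 2 libraries, no replicate spread can be given and no p-value was calculated. In a pool of whole tissue, fewer cells of a type and less RNA per cell cannot be told apart.

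A keratin filament is built from pairs of a type I and a type II chain, so that an epithelial cell makes at least a member of each type. The pair in use changes with the kind of epithelium and with the stage of a cell. Dividing basal cells of stratified epithelium make *Krt5* with *Krt14* and *Krt15*, the upper layers of the oral mucosa make *Krt4* with *Krt13*, the cornified epidermis makes *Krt1* with *Krt10*, and simple epithelia make *Krt8* with *Krt18*. Hard keratins form hair and nail and are also known from the filiform papillae, the small horny spines of the tongue. *Krt8* is widely used to mark taste bud cells.

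Expression was read as RPKM, reads per kilobase of exon model and per 1000000 mapped reads. The lowest values of 163 rows of 0.1 kb gave a depth of about 28375734 mapped reads in CvP and 27893358 in Epi. Ratios are given with an exact (Clopper-Pearson) 95% interval from estimated reads, which covers counting error only. The labels were checked with marker genes. All 8 taste cell markers were higher in CvP, with a summed RPKM of 375 against 5.12 in Epi, and *Pkd2l1* and *Kcnq1* were listed at 0 in Epi. The 6 markers of stratified epithelium summed to 2760 in CvP and 3476 in Epi, so that both libraries held this tissue.

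The sequences upstream of 6 genes are shown first, so that the starts of genes that moved together can be compared. They were chosen by their values, as the 3 keratins with the highest log2 ratio (0.1 added to both RPKM values) towards CvP and the 3 with the highest towards Epi. Each is the 150 bases before a RefSeq start site (promoter table of GRCm38.p6), found by exact match on the NCBI37/mm9 genome and written 5′ to 3′ on the gene's strand. Capitals mark a match to any of 4 motifs, each searched on both strands. The TATA box, where transcription is positioned, was spelled TATAAA. The site of AP-1 factors was spelled TGANTCA, and that of AP-2 factors, which act in many epithelial genes, GCCNNNGGC. The GC box bound by Sp1 was spelled GGGCGG. Overlapping matches were counted for each motif. The first 3 genes were higher in CvP and the last 3 in Epi.
Krt8 (chr15:101834774-101834923, minus strand): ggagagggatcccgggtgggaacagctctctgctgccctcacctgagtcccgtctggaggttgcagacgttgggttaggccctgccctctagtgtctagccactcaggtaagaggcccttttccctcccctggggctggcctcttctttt
Krt18 (chr15:101858497-101858646, plus strand): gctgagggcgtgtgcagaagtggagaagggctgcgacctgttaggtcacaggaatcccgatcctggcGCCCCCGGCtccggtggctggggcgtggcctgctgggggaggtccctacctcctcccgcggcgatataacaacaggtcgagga
Krt20 (chr11:99299468-99299617, minus strand): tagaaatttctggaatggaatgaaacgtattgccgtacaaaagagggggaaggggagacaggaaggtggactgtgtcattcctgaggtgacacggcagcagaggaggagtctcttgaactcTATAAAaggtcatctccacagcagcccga
Krt36 (chr11:99966941-99967090, minus strand): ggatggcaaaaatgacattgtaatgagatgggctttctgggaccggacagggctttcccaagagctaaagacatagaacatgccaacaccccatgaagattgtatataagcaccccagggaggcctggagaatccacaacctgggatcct
Krt84 (chr15:101363252-101363401, minus strand): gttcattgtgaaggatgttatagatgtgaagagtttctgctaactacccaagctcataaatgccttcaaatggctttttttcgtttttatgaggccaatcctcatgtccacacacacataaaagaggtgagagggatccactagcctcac
Krt76 (chr15:101723352-101723501, minus strand): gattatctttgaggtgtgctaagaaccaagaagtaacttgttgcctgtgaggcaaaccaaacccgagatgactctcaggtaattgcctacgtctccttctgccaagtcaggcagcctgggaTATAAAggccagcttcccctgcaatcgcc

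The TATA box began 29 bases before the start in *Krt20* and in *Krt76*, which moved in opposite directions. *Krt18* held an AP-2 match 83 bases before the start, and none of the 4 motifs matched in *Krt8*, *Krt36* or *Krt84*. Of the 49 keratin genes, 32 were in the promoter table. The TATA box was found in 13 of these 32 (40.6%), against 7.57% of all 32851 promoters of the same length. The GC box was found in 2 of the 32 (6.25%) against 28.6% of all promoters, the AP-1 site in 1 (3.13%) against 4.24%, and the AP-2 site in 4 (12.5%) against 9.61%. *Krt7* held matches to the AP-2 site and the GC box, some of which overlap, and *Krt75* was the other gene with a GC box, and both genes were higher in CvP. These matches describe letters in the windows and are not binding sites, and the lack of a match says only that these letters are not there.

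Another sequence matters for how the values can be read. *Krt6a* and *Krt6b* lie next to each other on chromosome 15, and the run of 280 bases below is identical in both, at chr15:101524367-101524646 in *Krt6a* and chr15:101510342-101510621 in *Krt6b* (minus strand, coding bases 34 to 313). A read of 75 bases from inside this run cannot be assigned to either gene by its sequence.
Krt6a and Krt6b: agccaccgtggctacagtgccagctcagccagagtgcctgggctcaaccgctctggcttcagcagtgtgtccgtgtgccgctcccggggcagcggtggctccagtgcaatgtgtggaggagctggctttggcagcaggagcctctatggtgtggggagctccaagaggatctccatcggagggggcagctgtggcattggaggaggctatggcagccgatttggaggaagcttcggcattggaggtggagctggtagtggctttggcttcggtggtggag

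Keratin transcripts made up 13.1% of the summed RPKM of all rows in CvP and 23.9% in Epi. The summed keratin RPKM was 44576 in CvP and 98172 in Epi, a ratio of 2.20 towards Epi. *Krt13* and *Krt4* alone held 39.4% and 26.5% of the keratin RPKM in CvP, and 48.7% and 22.8% in Epi. Without these genes the keratins held 4.46% of all RPKM in CvP and 6.79% in Epi. The order below them differed. *Krt17*, *Krt6a*, *Krt5*, *Krt6b* and *Krt75* followed in CvP, whereas *Krt6a*, *Krt76*, *Krt6b*, *Krt16* and *Krt17* followed in Epi. Among the 50 highest rows of the whole table, 6 were keratins in CvP and 10 in Epi.

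**Figure D1:**
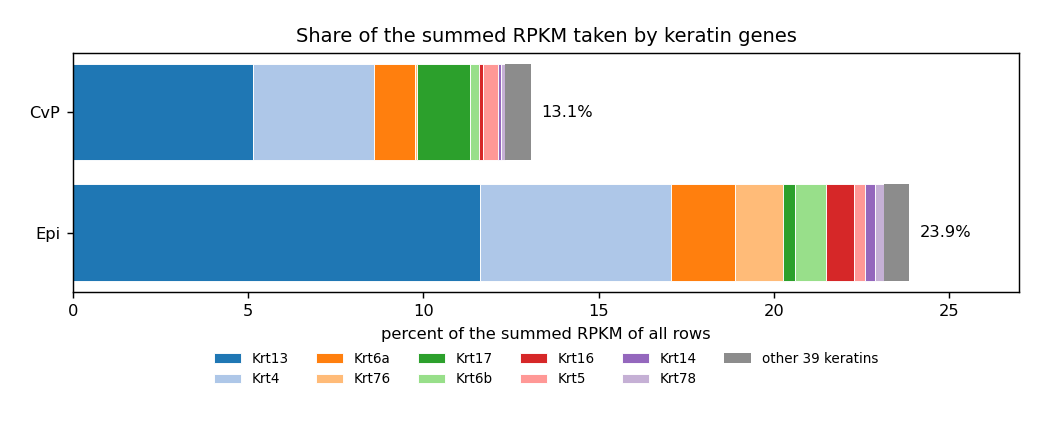
Share of the summed RPKM of all rows (horizontal axis, percent) taken by keratin genes in both libraries, CvP above Epi, with a coloured segment for each of the 10 keratins that reached an RPKM of 1000 and a grey segment for all others. The bars end at 13.1% and 23.9%, and the segments of Krt13 and Krt4 take up most of both.

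Type I and type II transcripts kept a similar balance in both libraries when all members were summed. The type I sum was 1.24 times the type II sum in CvP and 1.31 times in Epi. *Krt13* and *Krt4* weighed heavily in both sums. Without them the type I sum was 0.870 of the type II sum in CvP and 0.391 in Epi. The median log2 CvP/Epi ratio (0.1 added to both RPKM values, members that reached an RPKM of 1 in CvP or Epi) was -1.25 over 16 type I genes and -0.92 over 13 type II genes. Over all rows past the same filter it was 0.50. It was -0.36 over the 551 rows with an RPKM above 100 in either library, where 22 of the keratins lie.

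The study's own criteria were then applied in both directions, an RPKM above 10 in the higher library and a ratio above 3. Towards CvP 7 of the 49 keratins passed, namely *Krt7*, *Krt8*, *Krt17*, *Krt18*, *Krt19*, *Krt20* and *Krt75*, against 2.35% of all rows. Towards Epi 10 passed, namely *Krt6b*, *Krt10*, *Krt14*, *Krt16*, *Krt24*, *Krt36*, *Krt76*, *Krt78*, *Krt79* and *Krt84*, against 0.600% of all rows. Of the 49 keratins, 22 had an RPKM above 100 in either library and 20 stayed under 1 in both. The same shares were therefore taken among abundant rows. Of the 26 keratins with an RPKM above 10 in either library, 26.9% passed towards CvP and 38.5% towards Epi, against 7.58% and 1.93% of all such rows. Of the 22 keratins above 100, 27.3% and 40.9% passed, against 9.44% and 9.07% of all such rows. The median ratio of rows with an RPKM of at least 1 in both libraries was 1.31 (log2 0.39), called the median ratio below. Over the 551 rows with an RPKM above 100 in either library the median was 0.781 (log2 -0.36). The level to set beside the ratio of a gene therefore depends on the rows taken.

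**Figure D2:**
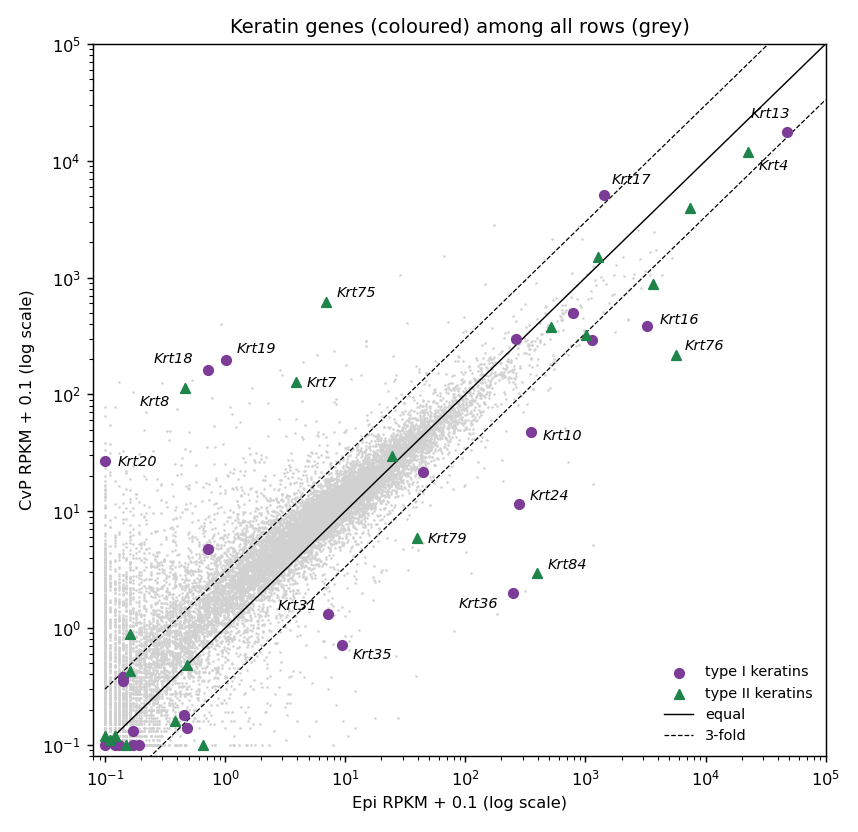
RPKM in Epi (horizontal axis) against RPKM in CvP (vertical axis) with 0.1 added, both on log scales, for all 18498 rows in grey and for type I (circles) and type II (triangles) keratins in colour. The solid line marks equal values and the dashed lines a 3-fold difference. Keratins lie on both outer sides of the grey cloud, with Krt8, Krt18, Krt19, Krt20 and Krt75 above it and Krt24, Krt36, Krt76 and Krt84 below it.

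The mucosal suprabasal keratins *Krt13*, *Krt4*, *Krt76* and *Krt78* were all higher in Epi. Of the 551 rows with an RPKM above 100 in either library, 358 were higher in Epi. Their summed RPKM was 29889 in CvP and 76886 in Epi, which was 67.1% and 78.3% of the keratin RPKM. *Krt13* (type I, chr11:99978910-99982809) had an RPKM of 17549 in CvP and 47815 in Epi, 2.72-fold higher in Epi (95% interval 2.72 to 2.73) and under the study's minimum ratio. *Krt4* (type II, chr15:101748966-101755166), its usual partner, had an RPKM of 11801 in CvP and 22406 in Epi, 1.90-fold higher in Epi (1.89 to 1.90). These genes held ranks 1 and 2 of all rows in both libraries. *Krt76* (type II, chr15:101714782-101723351), a keratin of the hard palate and other masticatory mucosa, stood far outside this pattern. It had an RPKM of 217 in CvP and 5649 in Epi, 26.0-fold higher in Epi (25.6 to 26.5), at rank 165 of all rows in CvP and rank 4 in Epi. *Krt78*, a type II gene 3 places further along the same cluster, had an RPKM of 322 in CvP and 1016 in Epi, 3.16-fold higher in Epi (3.12 to 3.20).

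The basal layer keratins did not move together. *Krt5*, the type II keratin of dividing basal cells, had an RPKM of 1506 in CvP and 1271 in Epi, a CvP/Epi ratio of 1.19 (1.17 to 1.20). *Krt14*, its type I partner, had an RPKM of 295 in CvP and 1140 in Epi, 3.87-fold higher in Epi (3.80 to 3.94). *Krt15*, the other type I keratin of basal cells, had an RPKM of 497 in CvP and 784 in Epi, 1.58-fold higher in Epi (1.55 to 1.60). Both type I genes of the group were thus higher in Epi. The ratio of *Krt5* to *Krt14* was therefore 5.11 in CvP and 1.11 in Epi. *Krt5* lay on the other side of 1 when ratios were divided by the median ratio of 1.31, at 0.903. Its undivided ratio of 1.19 lay above the median of 0.781 over rows with an RPKM above 100.

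The keratins of cornified epidermis summed to 77.0 in CvP and 379 in Epi, nearly all of the latter *Krt10*. *Krt10*, the type I keratin that epidermal cells make on leaving the basal layer, had an RPKM of 47.2 in CvP and 355 in Epi, 7.53-fold higher in Epi (7.23 to 7.83). *Krt1*, its type II partner, had an RPKM of 29.5 in CvP and 24.4 in Epi, a ratio of 1.21 (1.13 to 1.29) that fell to 0.921 after division by the median ratio. *Krt2*, *Krt9* and *Krt77*, which are known from the epidermis, were all under an RPKM of 1.

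*Krt6a*, *Krt6b*, *Krt16*, *Krt17* and *Krt75* are keratins of wounded or fast-growing epithelium, of the companion layer of the hair follicle and of other appendages. They split between the libraries, with 3 higher in Epi and 2 in CvP. *Krt16*, a type I keratin induced in wounds, had an RPKM of 386 in CvP and 3286 in Epi, 8.51-fold higher in Epi (8.38 to 8.64). *Krt17* (chr11:100117531-100122303), the next type I gene, went the other way. It had an RPKM of 5134 in CvP (rank 3 of all rows) and 1426 in Epi (rank 30), a ratio of 3.60 (3.57 to 3.63), which was 2.74 after division by the median ratio and so under 3. *Krt75* (type II, chr15:101393774-101404335), known from the companion layer of hair, had an RPKM of 614 in CvP and 6.82 in Epi, a log2 ratio of 6.47 (95% interval of the linear ratio 83.2 to 97.6).

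*Krt6a* had an RPKM of 3949 in CvP and 7499 in Epi, 1.90-fold higher in Epi (1.89 to 1.91). *Krt6b* had an RPKM of 873 in CvP and 3681 in Epi, 4.22-fold higher in Epi (4.18 to 4.25). These type II proteins are 96.9% identical, and 57.6% of the 75-base windows of the *Krt6a* transcript and 58.4% of those of *Krt6b* match the other gene with at most 2 mismatches. How such reads were divided between the genes is not given in the sources used here, so each value alone is uncertain. The sum of both had an RPKM of 4822 in CvP and 11180 in Epi, 2.32-fold higher in Epi.

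All 6 simple epithelial keratins were higher in CvP, as were 9805 of all 12549 rows past the filter at an RPKM of 1. *Krt23* alone fell below 1 on division by the median ratio, and the other 5 passed the criteria. The summed RPKM of the 6 was 925 in CvP and 271 in Epi, and *Krt23* made up nearly all of the latter. *Krt8* (type II, chr15:101827142-101834773) had an RPKM of 113 in CvP and 0.36 in Epi, a ratio of 313 (199 to 532). *Krt18* (type I, chr15:101858647-101862457), its partner and the next keratin on the chromosome, had an RPKM of 161 in CvP and 0.62 in Epi, a ratio of 260 (176 to 409). The intervals of the pair overlap, so their ratios could not be told apart at this depth.

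The remaining simple keratins showed the same direction with more spread. *Krt19* (type I, chr11:100002126-100007233), which many epithelia make beside *Krt8*, had an RPKM of 198 in CvP and 0.91 in Epi, a ratio of 217 (159 to 304). *Krt7* (type II, chr15:101242834-101258237), a keratin of ducts and glands, had an RPKM of 129 in CvP and 3.78 in Epi, a ratio of 34.1 (30.9 to 37.5). *Krt20* (type I, chr11:99289717-99299467), known from gut epithelium and from Merkel cells, had an RPKM of 26.8 in CvP and was listed at 0 in Epi, where 3 reads would be worth 0.0558. *Krt23* did not take part, with an RPKM of 298 in CvP and 265 in Epi. Its ratio of 1.12 (1.10 to 1.15) fell to 0.855 after division by the median ratio. The undivided ratio lay above the median of 0.781 over rows with an RPKM above 100.

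Markers of other cells moved with the simple keratins. The 8 taste cell markers, from *Gnat3* (127 in CvP, 0.03 in Epi) to *Car4* (6.24 and 0.03), were all higher in CvP. Gland markers pointed in both directions. Of the 5 with a row, *Pigr* (12.0 in CvP, 0.54 in Epi) and *Aqp5* (6.09 and 0.69) were higher in CvP, and *Lipf* (1.96 and 313) and *Amy1* (0.85 and 80.5) in Epi. All 5 immune cell markers were higher in CvP (sum of 199 against 21.0), as were 9805 of all 12549 rows past the filter. The part of each of these cells in the levels of the simple keratins was not tested.

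**Figure D3:**
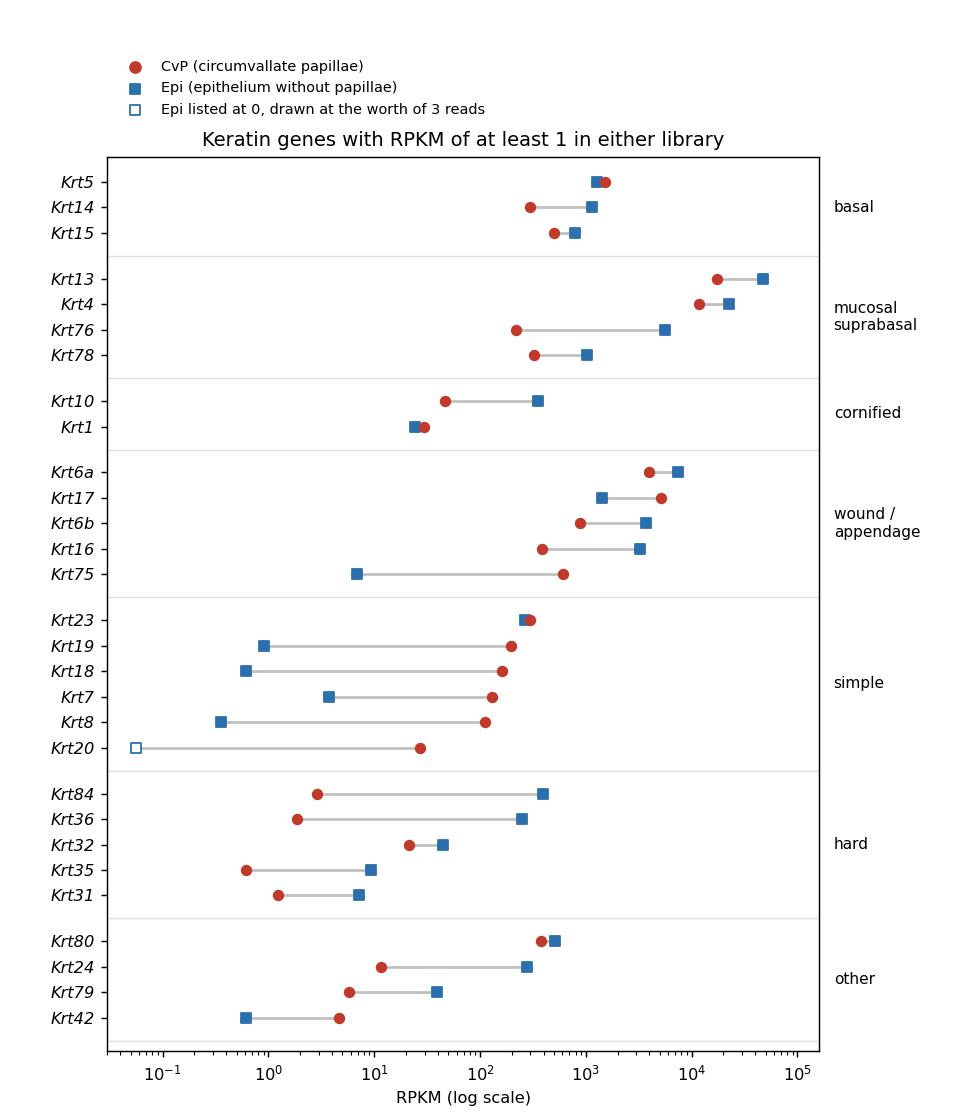
RPKM (log scale) of the 29 keratin genes that reached an RPKM of 1, with circles for CvP and squares for Epi, grouped by where each keratin is known from. Simple keratins other than Krt23 lie far to the right in CvP, the hard keratins Krt84 and Krt36 far to the right in Epi, Krt32 differs by 2.07-fold, and the mucosal keratins Krt13 and Krt4 are the highest in both. The open square of Krt20 is drawn at the worth of 3 reads because the Epi value is listed as 0.

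The hard keratins showed the opposite pattern. Of the 16 genes listed 15 had a row, and the 5 that reached an RPKM of 1 were all higher in Epi. Of all 12549 rows past this filter, 2739 were higher in Epi. Among the 15 hard keratins with a row, 11 were higher in Epi, 2 in CvP and 2 were equal. The summed RPKM of the 15 was 29.5 in CvP and 708 in Epi, a ratio of 24.0 towards Epi. *Krt84* (type II, chr15:101355457-101363251), known from tongue papillae, had an RPKM of 2.88 in CvP and 396 in Epi, 137-fold higher in Epi (120 to 158). *Krt36* (type I, chr11:99963327-99966940), known from the filiform papillae, had an RPKM of 1.88 in CvP and 250 in Epi, 133-fold higher in Epi (108 to 166). These were the largest differences towards Epi in the family, and their intervals overlap. *Krt84* exceeded *Krt36* by the same factor in both libraries within counting error, 1.53 in CvP and 1.58 in Epi.

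*Krt32*, a type I keratin of the hair cuticle, had an RPKM of 21.5 in CvP and 44.5 in Epi, 2.07-fold higher in Epi (1.92 to 2.24), and was the most abundant hard keratin in CvP. *Krt31* and *Krt35* of the hair cortex had RPKM values of 1.22 and 0.62 in CvP and 7.12 and 9.28 in Epi, under the minimum of 10. The type II hard keratins of hair, *Krt81*, *Krt82*, *Krt83*, *Krt85* and *Krt86*, stayed under 1 in both libraries. Thus the type II side of this group was *Krt84* with little else, while the type I side held *Krt36*, *Krt32*, *Krt35* and *Krt31*.

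*Tchh*, *Tchhl1* and the hair matrix markers moved in the same direction, whereas the *Krtap* genes given below went in both directions. *Tchh* (trichohyalin), which binds keratin filaments together in hair roots and filiform papillae, had an RPKM of 5.06 in CvP and 1156 in Epi, 228-fold higher in Epi. Its relative *Tchhl1* had an RPKM of 0.02 in CvP and 10.4 in Epi. All 3 markers of hair matrix with a row were higher in Epi, as were 2739 of all 12549 rows past the filter. Their sum was 3.82 in CvP and 14.3 in Epi, and *Lef1*, at 3.19 and 4.89, made up most of the CvP sum. *Hoxc13*, a regulator of hair keratin genes, was listed at 0 in CvP and had an RPKM of 1.54 in Epi, and *Msx2* had 0.63 and 7.87. The labels state that Epi carried no papillae and do not say whether filiform papillae were counted among them. Gland markers (21.1 in CvP, 395 in Epi) and skeletal muscle markers (2.18 and 32.9) were also higher in Epi by their sums, and the part of any of these cells in the levels of the hard keratins was not tested.

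Of the 8 keratins of the inner root sheath of hair 5 had a row, and none of these reached an RPKM of 1. These genes, *Krt27*, *Krt28*, *Krt71*, *Krt73* and *Krt74*, summed to 0.02 in CvP and 0.71 in Epi. The highest was *Krt73*, at 0.55 in Epi (33 estimated reads) and 0 in CvP. The 3 of them that differed were all higher in Epi, as were 3909 of all 18498 rows. *Krt27* and *Krt74* rest on 4 and 2 estimated Epi reads.

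The last group holds keratins of mixed or less known place. *Krt24*, a type I keratin, had an RPKM of 11.5 in CvP and 281 in Epi, 24.4-fold higher in Epi (22.5 to 26.5). *Krt79*, a type II keratin of hair follicle openings, had an RPKM of 5.81 in CvP and 39.5 in Epi, 6.80-fold higher in Epi (6.06 to 7.63). *Krt80*, a widely made type II keratin, differed little, with an RPKM of 379 in CvP and 514 in Epi, 1.36-fold higher in Epi (1.34 to 1.37). *Krt42*, a type I gene next to *Krt17*, had an RPKM of 4.67 in CvP and 0.62 in Epi. *Krt12*, the keratin of the cornea, and *Krt222* stayed under 1.

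Pairs of a type II and a type I gene were compared, by whether the CvP/Epi ratios of both genes had overlapping intervals. *Krt8* with *Krt18* and *Krt84* with *Krt36* had overlapping intervals. The pair of hard keratins was set side by side because both genes were high in Epi, so their likeness is a description of that choice. The intervals of the other 5 pairs did not overlap. Overlap depends on read number as well as on the ratios, so it does not sort pairs that moved together from others. *Krt8* and *Krt18* rest on 18 and 24 estimated Epi reads, *Krt4* and *Krt13* on 1332431 and 2205960. The type II ratio over the type I ratio was 1.20 for *Krt8* with *Krt18* and 0.967 for *Krt84* with *Krt36*. It was 1.44 for *Krt4* with *Krt13*, and 4.48 to 9.10 or 0.0659 for the rest. Levels of different genes are compared per length, and the length by which the authors' software (ERANGE) divided the reads is not known for each gene, so the 2 levels of a pair can only be compared between the libraries. The ratio of *Krt4* to *Krt13* was 0.672 in CvP and 0.469 in Epi. The ratio of *Krt1* to *Krt10* was 0.625 in CvP and 0.0687 in Epi, and that of *Krt6a* to *Krt16* was 10.2 and 2.28. In these pairs and the basal pair, the type I gene was the one with the larger difference towards Epi. *Krt6b* and *Krt17* differed in direction, with 0.170 *Krt6b* per *Krt17* in CvP and 2.58 in Epi.

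The order of the genes on the chromosomes was read next. The keratins of chromosome 11 span 1.04 Mb (chr11:99094412-100131185) and those of chromosome 15 span 0.682 Mb (chr15:101180002-101862457). On chromosome 11 the 11 keratins from *Krt39* to *Krt15* were all higher in Epi, 6 of them with an RPKM of at least 1, while the other 5 rest on 1 to 17 estimated Epi reads. Of all 18498 rows, 3909 were higher in Epi. This stretch of 621 kb holds the type I hard keratins and ends with *Krt13* and *Krt15*. Within it, 468040 bases between *Krt40* and *Krt33a* hold no keratin, and *Krtap* rows of both directions lie there. On chromosome 15 the 4 neighbours *Krt76*, *Krt4*, *Krt79* and *Krt78* were all higher in Epi within 69.9 kb. Beyond *Krt78*, after a gap of 42423 bases, came *Krt8* and *Krt18*, both higher in CvP.

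Adjacent genes also parted sharply. *Krt15* and *Krt19* lie 4862 bases apart, and their log2 ratios differed by 8.27. *Krt16* and *Krt17* lie 7314 bases apart and differed by 4.94 on the same scale. Of the 10 adjacent keratins on chromosome 11 that both reached an RPKM of 1, 8 went in the same direction and 2 in opposite directions. On chromosome 15 it was 5 and 4 of 9. Directions of other adjacent rows of the table were not counted.

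**Figure D4:**
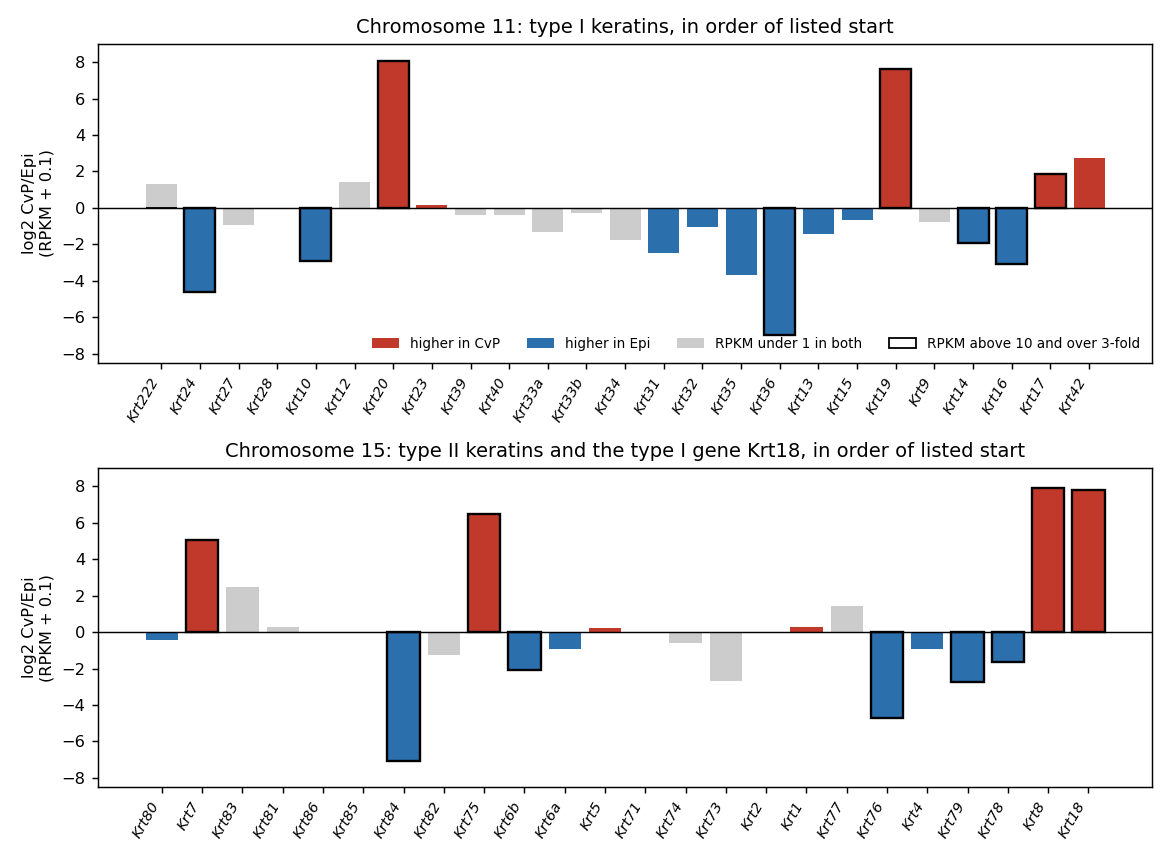
Log2 CvP/Epi ratio (vertical axis, 0.1 added to both RPKM values) of each keratin gene in the order of its listed start on chromosome 11 (upper panel) and chromosome 15 (lower panel), coloured by the library in which it was higher, grey under an RPKM of 1 in both, and outlined where it passed the criteria. The stretch from Krt39 to Krt15 points down throughout, and Krt8 and Krt18 stand up together at the end of chromosome 15. The height of Krt20, listed at 0 in Epi, depends on the 0.1 that was added.

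The 20 members under an RPKM of 1 were *Krt2*, *Krt9*, *Krt12*, *Krt27*, *Krt28*, *Krt33a*, *Krt33b*, *Krt34*, *Krt39*, *Krt40*, *Krt71*, *Krt73*, *Krt74*, *Krt77*, *Krt81*, *Krt82*, *Krt83*, *Krt85*, *Krt86* and *Krt222*. Their values ran from 0 to 0.79 in CvP and from 0 to 0.55 in Epi. Thus 29 of the 49 passed the filter on low values, with 18 of these higher in Epi and 11 in CvP. Of all 12549 rows past this filter, 2739 were higher in Epi and 9805 in CvP. Of the 551 rows with an RPKM above 100 in either library, 358 were higher in Epi and 193 in CvP. *Krt1*, *Krt5* and *Krt23*, among the 11, fell below 1 on division by the median ratio. *Krt5* and *Krt23* lie among the rows above 100, whose median of 0.781 was below the ratios of both genes.

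Some values are uncertain because reads could fit several genes. Between type I proteins the median identity was 43.0% (325 pairs), between type II proteins 47.1% (231 pairs), and across types 23.0% (572 pairs). Beside *Krt6a* and *Krt6b*, 5 pairs were over 90% identical, all among hard keratins: *Krt33a* with *Krt33b* (94.3%), *Krt81* with *Krt86* (94.2%), *Krt31* with *Krt33a* (92.3%), *Krt31* with *Krt33b* (92.1%) and *Krt33a* with *Krt34* (90.3%). *Krt31*, *Krt33a*, *Krt33b* and *Krt34* together had an RPKM of 1.34 in CvP and 7.87 in Epi. *Krt14* shared 33.9% of its 75-base windows with other keratins, *Krt16* 20.3%, *Krt17* 162 of 1477 windows and *Krt5* 9.74%. *Krt14* and *Krt16* summed to 681 in CvP and 4426 in Epi, 6.50-fold higher in Epi. With *Krt17* added, the sums were 5815 and 5852. No window of *Krt8*, *Krt18*, *Krt19*, *Krt20*, *Krt84*, *Krt13* or *Krt4* was shared with another keratin. Only coding transcripts of the members were compared, and matches elsewhere in the genome were not searched.

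Exons of *Krt10*, *Krt12* and *Krt32* overlap noncoding transcripts on the opposite strand, *Gm11940* by 146 bases, *A830036E02Rik* by 1007 bases and *Gm11571* by 249 bases. Without strand, reads of these genes and their partners cannot be told apart. The row of *Krt85* is listed over 175822 bases and encloses other keratins, with a value of 0.38 in both libraries. The row named *Krt83* has a gene number that GRCm38 gives to *Krt87*.

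Other genes of the filament system were counted by the same criteria. Of 18 partner genes 17 had a row. Of these, 4 passed the criteria towards Epi and 0 towards CvP, against 0.600% and 2.35% of all rows. Among rows with an RPKM above 100 in either library the shares were 9.07% and 9.44%. The 16 partners past the filter had a median log2 ratio of -0.37, near the -0.36 of the rows above 100. The partners past the criteria were *Tchh*, *Tchhl1*, *Rptn* (repetin, 1468 in CvP and 5290 in Epi) and *Hrnr* (hornerin, 339 and 1753). *Dsp* (desmoplakin), which ties keratin to desmosomes, had an RPKM of 578 in CvP and 673 in Epi. Of 15 other intermediate filament genes with a row, 0 passed in either direction. The lamins *Lmna* (99.0 in CvP and 126 in Epi), *Lmnb1* (19.1 and 11.5) and *Lmnb2* (8.13 and 4.28) were the highest of them, and the median log2 ratio of the 7 genes past the filter was 0.72. *Vim*, the filament of fibroblasts and other mesenchymal cells, was at 3.99 and 2.79. This was far under abundant keratins such as *Krt13* and *Krt4*, and above the 20 keratins under an RPKM of 1.

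Of 16 transcription factors of stratified epithelium 14 had a row. Only *Sox2*, a factor of taste progenitor cells, passed the criteria, with an RPKM of 82.0 in CvP and 19.1 in Epi. Of all rows 2.35% passed towards CvP. The median log2 ratio of the 13 factors past the filter was -0.36. It was 0.50 over all rows past the filter and -0.36 over rows with an RPKM above 100. *Klf4*, a factor of differentiating cells, had an RPKM of 164 in CvP and 256 in Epi. *Klf5*, a factor of basal cells, had 136 and 93.8. *Trp63*, the basal cell regulator, had 62.3 and 33.6. *Klf5* and *Trp63* were therefore higher in CvP and *Klf4* in Epi, each by less than the minimum ratio of 3. The CvP/Epi ratio was 1.45 for *Klf5* and 1.85 for *Trp63*. The median ratio was 1.31, and over rows with an RPKM above 100 the median was 0.781. *Pitx1* had 73.2 in CvP and 129 in Epi. Fibroblast markers summed to 27.5 in CvP and 128 in Epi, nearly all of it *Dcn* (26.1 and 128). Of the 6 markers 5 were higher in Epi, as were 3909 of all 18498 rows, and *Pdgfra* was higher in CvP (1.3 and 0.07). *Lum*, listed at 0 in CvP, and the collagen genes *Col1a1*, *Col1a2* and *Col3a1* were under an RPKM of 1 in both libraries.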

How the data were processed

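The members and the gene lists were chosen with earlier results of these data known. RNA was extracted from each tissue of C57BL/6J mice and pooled, and poly(A) RNA was made into a library with a TruSeq kit. Single-end reads of 75 bases were mapped by the authors to NCBI37/mm9 with Bowtie 0.12.7, and ERANGE gave the RPKM values that were deposited. The authors' column of ratios was not used. How reads that match several places, and strand, were treated is not given in the sources used here. Epi served as the reference tissue for each CvP value.

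Ratios were quotients of the deposited RPKM values, and intervals came from reads estimated as RPKM times depth times gene length, for which the listed value or the longest coding transcript of GENCODE M1 was taken, whichever was less. The listed length cannot have been the divisor throughout, since RPKM times listed kb summed to 1766466 in CvP and 1998307 in Epi, over the 1000000 possible. With the shorter length the sums were 818100 and 896534. In the 26 members with an RPKM of at least 10 the listed length was a median of 1.79 times the coding transcript, up to 8.30 times in *Krt23*, and in those under 1 it was 0.998 times. Intervals and the floor of 3 reads cover counting error only.

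Members that reached an RPKM of 10 in CvP or Epi were named with both values, ratio and interval, those from 1 to 10 with both values, and those under 1 by name and range. Of other lists, the 3 highest genes and those past the criteria were named. *Krt7* and *Krt75* promoters, *Vim*, *Trp63* and the markers other than the sums were named after their values were seen. Protein identity was computed over translated GENCODE M1 coding sequences of 48 members. Medians were taken after 0.1 was added to each RPKM value, so ratios of low genes lie nearer to 1. Depth and intervals were tested on simulated data. Alternatives were other minimums, pseudocounts, filters and scalings. Python 3.11.15, numpy 2.4.6, pandas 2.3.3, scipy 1.17.1 and matplotlib 3.10.9 were used.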

Additional observations from a re-analysis of the deposited data

How the results depend on the processing

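No paired analysis was possible because CvP and Epi were 1 library each. The number of keratins past the criteria ran from 6 to 8 towards CvP and from 7 to 12 towards Epi over 7 alternatives each. Towards CvP, *Krt17* was lost at a minimum ratio of 5 and on division by the median ratio, *Krt20* was lost at a minimum RPKM of 50, and *Krt42* was gained at a minimum of 1 and after rescaling to a common sum. Towards Epi, *Krt6b*, *Krt14* and *Krt78* were lost at a ratio of 5, *Krt78* also after rescaling, and *Krt79* at a minimum of 50. *Krt13* and *Krt32* were gained at a ratio of 2, *Krt13* on division by the median ratio, and *Krt31* and *Krt35* at a minimum of 1 and after rescaling. Over all rows the split of 435 towards CvP and 111 towards Epi became 342 and 196 on division by the median ratio. After rescaling it was 1382 and 114. The rescaling brought RPKM sums of 341141 in CvP and 411512 in Epi up to 1000000, with the minimum kept at 10. It therefore let in rows of lower RPKM, and its counts do not show the shift of the ratios alone. A minimum RPKM of 1 without rescaling gave 1990 and 246. Division by the median ratio moved *Krt1*, *Krt5* and *Krt23*, of the 25 keratins with an RPKM of at least 10 in CvP or Epi and an Epi value above 0, from above to below 1, and neither a pseudocount of 0.1 or 1 nor rescaling moved any.

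The median log2 ratio of type I keratins was -0.71 with no filter on low values, -1.05 with a filter at 10, -1.64 on division by the median ratio and -0.98 after rescaling. For type II keratins it was 0 with no filter, -1.32 after division and -0.65 after rescaling. A filter changes which genes enter the median, whereas division and rescaling shift every ratio by a constant, log2 0.39 and 0.27. The keratin share of CvP was 8.35% without *Krt13*, 12.8% weighted by listed length and 10.4% weighted by the shorter length. That of Epi was 13.8%, 24.3% and 20.9% in the same order. The weighting by the shorter length was chosen after seeing the data. Without replicates, depth limits only the counting error of a value, and ratios with few Epi reads, such as that of *Krt8*, have the widest intervals.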

Other observations

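Genes with similar names lie outside the family and were chosen after their values were seen. Keratin-associated proteins cross-link hard keratins in hair. Of 15 *Krtap* rows 6 reached an RPKM of 1, and 5 of these were higher in Epi, as were 2739 of all 12549 such rows. Their summed RPKM was 16.0 in CvP and 63.9 in Epi. *Krtap3-3* had an RPKM of 4.80 in CvP and 36.1 in Epi, *Krtap13* had 0.04 and 12.0, and *Krtap3-1* had 0.06 and 5.57. *Krtap3-2* went the other way, with 10.7 in CvP and 5.52 in Epi. *Krtdap*, which is made by differentiating keratinocytes and is no keratin, had an RPKM of 2458 in CvP and 3728 in Epi. *Krtcap3* had 18.6 in CvP and 5.04 in Epi. The row *4732456N10Rik*, which lies in the type II cluster between *Krt82* and *Krt75* and carries no *Krt* symbol in the table, had an RPKM of 6.43 in CvP and 2.08 in Epi.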
